A study of Mus musculus with 12 samples.

Results

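The contrast described here is the difference between 2 dexamethasone responses in mouse liver: the change with dexamethasone in HESKOL mice minus the change with dexamethasone in wild-type mice, gene by gene. All 12 arrays of the series entered it. It was tested for 18658 of 27758 genes, those with a clear signal (well above background) in all 3 livers of some group. Genes were not chosen by their difference, but some passed this filter only through the group where they were high. The groups were HESKOL Dex, HESKOL untreated, WT Dex and WT untreated, each with 3 male C57BL/6 mice aged 8 to 10 weeks, 1 mouse per array. Every mouse, untreated ones included, had been adrenalectomized, which removes its own source of glucocorticoids. Dex mice received 1 mg/kg dexamethasone into the peritoneum, with the liver taken 6 hours later, and the labels mention no vehicle for untreated mice. The labels call the HESKOL animals knockout mice and the series title names Hes1, but they state neither what HESKOL stands for, nor which part of the gene was altered, nor in which cells. Levels are log2 signals minus the log2 75th percentile of the same array, and a positive difference means a response more positive in HESKOL than in wild-type liver.

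Dexamethasone activates the glucocorticoid receptor, a nuclear receptor that in hepatocytes raises genes of glucose output, amino acid breakdown and lipid handling, and in many cells lowers inflammatory genes. Hes1 is a repressor of transcription best known as a target of Notch. A gene stands out in the contrast when dexamethasone moved it in HESKOL liver and not, or in the opposite direction, in wild-type liver, or the reverse.

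The arrays lay on 3 slides. All HESKOL Dex livers were on slide 3, together with WT Dex replicate 3. The other WT Dex livers shared slide 2 with HESKOL untreated replicates 2 and 3, and slide 1 carried HESKOL untreated replicate 1 and every WT untreated liver. With slide as a block the contrast becomes the genotype difference among treated livers on slide 3 minus that among untreated livers on slide 1, so it uses 1 WT Dex array and 1 HESKOL untreated array and has wide errors. WT Dex replicate 1 stood apart, with a root mean square deviation of 0.994 log2 units, over genes, from its fellow WT Dex arrays, against 0.463 to 0.798 for the other 11 arrays within their groups. Many results below are also given with the blocked value or the value without WT Dex replicate 1. Between 61.5% and 71.9% of probes were well above background on an array, and the number of arrays limits the precision.

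Only 3 genes passed the threshold of an adjusted p of 0.05 (limma, Benjamini-Hochberg over all genes tested), or 0.0161% of those tested: Phf11d and Sesn1, which dexamethasone raised in HESKOL liver and not detectably in wild-type liver, and Il1b, which it lowered in HESKOL liver and not detectably in wild-type liver. At an unadjusted p of 0.05, 1236 genes differed, or 6.62%, against 933 that the threshold alone would give. Of these, 600 were positive (3.22% of all genes tested) and 636 negative (3.41%), and the median difference over all genes was 0.00. The list counts at that p given below are to be read against these shares. Without WT Dex replicate 1, 1552 genes in either direction reached that p (limma). Between treated and untreated livers, 1460 genes changed in HESKOL liver (7.83%, 673 up and 787 down) and 37 in wild-type liver (0.198%, 30 up and 7 down). Treated and untreated livers of a genotype shared no slide, so these changes are not separated from slide. The unequal counts are no test of a difference: the contrast has a median standard error (SE) of 0.44 on the log2 scale, against 0.31 for the response of either genotype.

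The Phf11d probe is shown here because it identifies what was measured for that gene. Beside it stand 2 promoters of genes that passed, which were searched for motifs and not measured. Phf11d encodes a PHD finger protein and has near-identical neighbours on chromosome 14, so its probe sequence matters for what it can bind. The array file calls this gene D14Ertd668e and places the probe on the minus strand of mm7 at chr14:54217809-54217868.
Phf11d probe: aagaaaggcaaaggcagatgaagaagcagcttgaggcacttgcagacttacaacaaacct
The Sesn1 and Il1b probes lie at chr10:41718855-41718914 (plus strand) and chr2:129105464-129105523 (minus strand) of mm7. In the RefSeq promoters of GRCm38.p6, which run from 250 bases before to 50 after a gene's start, 4 short motifs were searched on both strands: AGAACA, the repeat unit of the glucocorticoid receptor's palindromic element; CACNAG, the N box of Hes proteins; GTAAACA, a forkhead motif; and CACGTG, an E box. Capitals mark AGAACA in the first sequence and GTAAACA in the second, both as their reverse complements. The first is chr14:59365441-59365740, minus strand, and the second is chr10:41810324-41810623, plus strand, 1 of 2 Sesn1 promoters.
Phf11d promoter: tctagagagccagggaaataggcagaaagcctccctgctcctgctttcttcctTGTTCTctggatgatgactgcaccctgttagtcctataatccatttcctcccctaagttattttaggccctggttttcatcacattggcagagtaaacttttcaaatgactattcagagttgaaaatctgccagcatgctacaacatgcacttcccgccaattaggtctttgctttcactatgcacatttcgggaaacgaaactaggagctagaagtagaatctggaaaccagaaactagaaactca
Sesn1 promoter: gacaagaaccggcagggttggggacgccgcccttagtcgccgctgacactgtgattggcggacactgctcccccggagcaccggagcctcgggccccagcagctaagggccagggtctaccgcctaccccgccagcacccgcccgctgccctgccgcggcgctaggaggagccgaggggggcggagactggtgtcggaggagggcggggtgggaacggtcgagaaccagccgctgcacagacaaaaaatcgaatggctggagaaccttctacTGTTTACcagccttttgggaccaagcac
Of 32851 mouse promoters of this length, 19.0% hold AGAACA, 42.5% CACNAG, 3.65% GTAAACA and 7.15% CACGTG. The second sequence also holds 1 CACNAG, which does not overlap its forkhead motif; no other match lies in these 2 sequences, and none in the other Sesn1 promoter or the Il1b promoter. A match describes these letters only.

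Phf11d had levels of 3.26, 2.98 and 2.82 in HESKOL Dex livers and 0.00, 0.00 and -0.35 in HESKOL untreated livers, against 0.15, 0.28 and 0.45 in WT Dex livers and 0.17, 0.04 and -0.24 in WT untreated livers. The 3 HESKOL Dex arrays lay well above the other 9, which overlapped each other. Dexamethasone raised the signal 8.78-fold in HESKOL liver (log2 change 3.13, SE 0.21, adjusted p = 0.000182 by limma) and the change in wild-type liver was 1.24-fold (log2 0.30, SE 0.21, adjusted p = 0.61). The difference of responses was 2.83 (SE 0.29, 95% interval 2.18 to 3.48, limma adjusted p = 0.0191), or 7.11-fold. With slide as a block it was 2.55 (SE 0.44), and 2.76 without WT Dex replicate 1. Phf11a, a paralogue looked up after these values were seen, showed a difference of 0.79 (SE 0.48, limma adjusted p = 0.844), and cross-hybridisation of the Phf11d probe with other members of the cluster was not tested.

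Sesn1 encodes sestrin 1, a stress-induced protein that restrains mTORC1 and is known as a p53 and FoxO target. Its levels were 4.71, 4.87 and 4.5 in HESKOL Dex livers and 1.98, 1.84 and 1.98 in HESKOL untreated livers, against 1.91, 1.60 and 2.18 in WT Dex livers and 1.52, 1.83 and 1.96 in WT untreated livers. Again the HESKOL Dex arrays stood above all 9 others. The response was 6.76-fold in HESKOL liver (log2 2.76, SE 0.21, adjusted p = 0.000443 by limma) and 1.09-fold in wild-type liver (log2 0.12, SE 0.21, adjusted p = 0.873), a difference of 2.63 (SE 0.30, 95% interval 1.97 to 3.30, adjusted p = 0.0241). Its other 2 probes gave differences of 2.56 (SE 0.52) and 2.35 (SE 0.71). The blocked value was 2.30 (SE 0.43) and the value without WT Dex replicate 1 was 2.64. Its relative Sesn2, sestrin 2, differed by 1.27 (SE 0.38), not past the threshold (limma adjusted p = 0.551), and by 0.64 (SE 0.38) in a second probe.

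Il1b encodes the cytokine interleukin 1 beta, made mainly by macrophages and other myeloid cells. Its levels were -4.15, -3.95 and -5.00 in HESKOL Dex livers and -0.23, -0.03 and -0.70 in HESKOL untreated livers, against -0.26, -1.39 and -0.41 in WT Dex livers and -0.62, -1.77 and -1.23 in WT untreated livers. All 3 HESKOL Dex arrays lay below the other 9, and the probe was well above background on every array. Dexamethasone lowered the signal 16.6-fold in HESKOL liver (log2 -4.05, SE 0.40, limma adjusted p = 0.001), whereas the log2 change in wild-type liver was 0.52 (SE 0.40, limma adjusted p = 0.658). The difference was -4.57 (SE 0.57, 95% interval -5.82 to -3.33, limma adjusted p = 0.0341), -4.94 (SE 0.86) with the slide block and -4.36 without WT Dex replicate 1. In bulk liver, fewer cells of a type and less RNA per cell cannot be told apart.

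**Figure D1:**
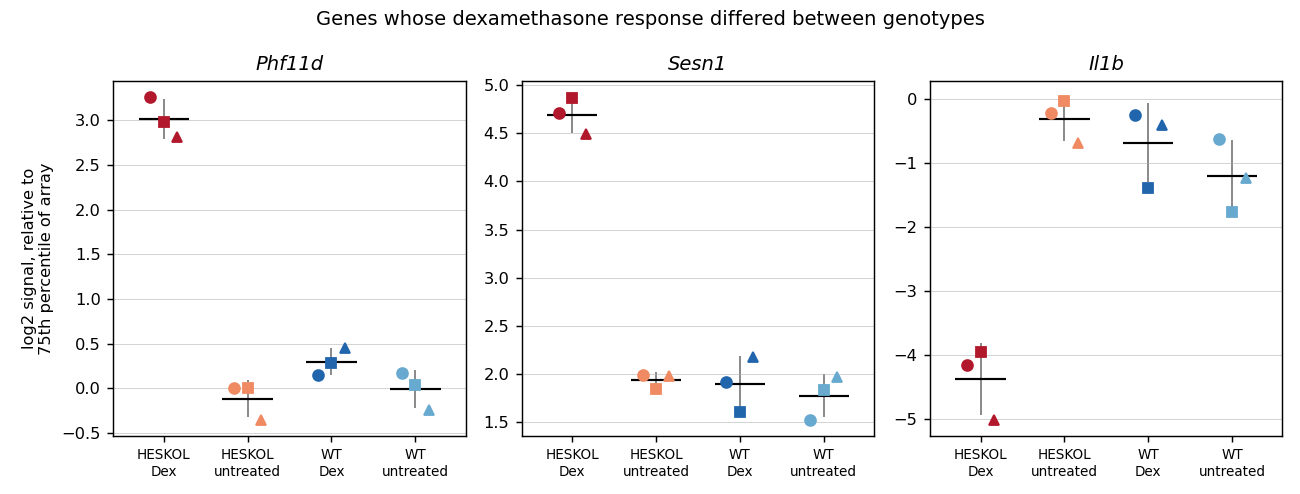
Level of Phf11d, Sesn1 and Il1b on each array (log2 signal relative to the 75th percentile of the array) in HESKOL Dex, HESKOL untreated, WT Dex and WT untreated livers; points are arrays (circle, square and triangle for replicates 1, 2 and 3), horizontal lines are group means and vertical lines 1 SD. The HESKOL Dex arrays are apart from the other 9 in all 3 genes.

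For these 3 genes the blocked values kept direction and size, but with slide as a block no gene of the array passed (adjusted p = 0.832 for each of the 3 by limma). Leaving out a single array moved the 3 differences little, to between 2.71 and 2.95 for Phf11d, 2.48 and 2.77 for Sesn1, and -4.92 and -4.26 for Il1b, while their adjusted p reached 0.124, 0.138 and 0.177 (limma). Without WT Dex replicate 1, 9 genes passed: these 3, Hacl1, and Gadd45a, Socs1, Dlgap1, Flvcr2 and Wfdc12, of which Socs1, Dlgap1, Flvcr2 and Wfdc12 were named after their values were seen.

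The next genes by the naming rule did not pass, and are given as values. Together with the 3 called genes they make 12 positive differences, between 1.40 and 4.12 (adjusted p 0.0191 to 0.182 by limma), and 12 negative ones, between -6.76 and -1.32 (adjusted p 0.0341 to 0.255 by limma). In 21 of these 24 genes the HESKOL Dex arrays lay apart from all 9 others, 10 above and 11 below. Over all genes tested, 5.38% had all HESKOL Dex arrays above the other 9 and 3.81% had them below, and these 24 were selected on the contrast that uses the same arrays. All 24 kept their sign with slide as a block. That is a weak check, since the blocked value reuses arrays of the contrast on which these genes were selected. They were also required to keep their sign with each array left out.

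**Figure D2:**
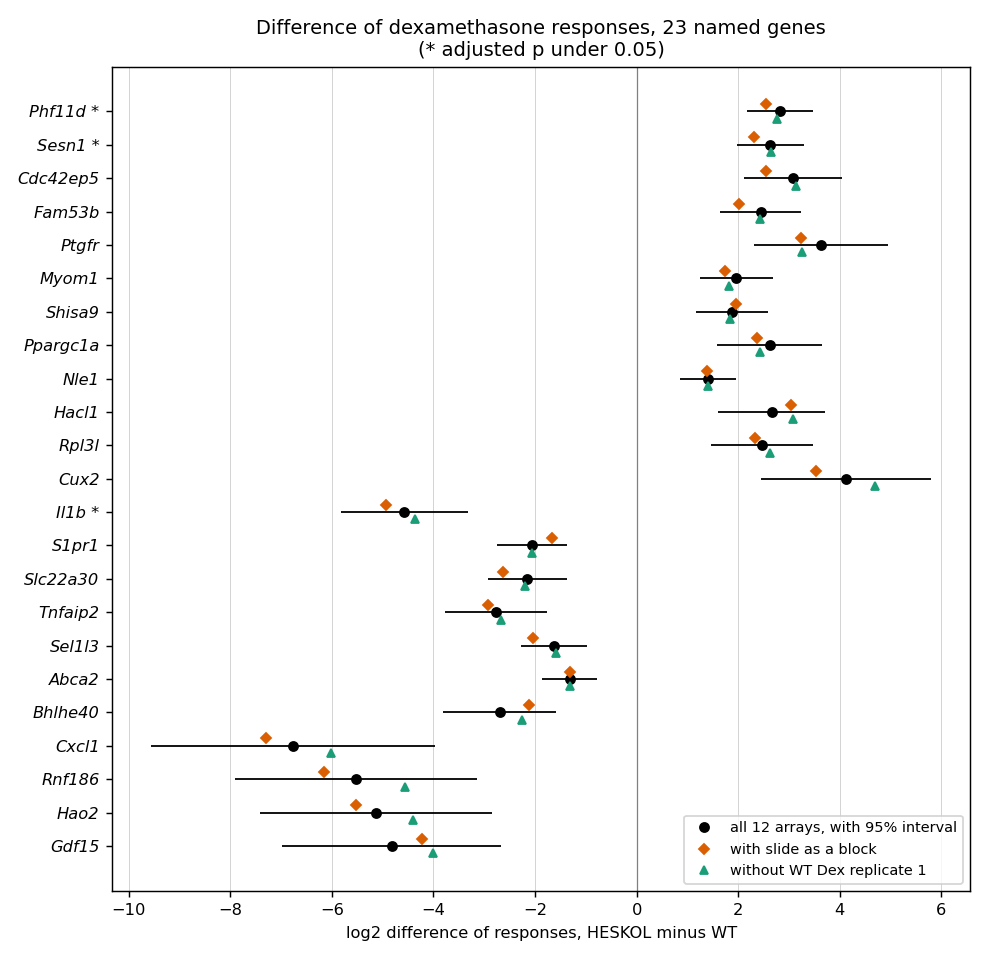
Difference of dexamethasone responses (HESKOL minus wild type, log2) for 23 of the 24 genes named by rule, with the 95% interval from all 12 arrays, the value with slide as a block and the value without WT Dex replicate 1. The asterisks mark Phf11d, Sesn1 and Il1b; no interval crosses 0, since the genes were ranked by this contrast.

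Among positive genes, Ppargc1a encodes PGC-1alpha, a coactivator that drives gluconeogenic and mitochondrial genes. Its levels were 2.87, 3.41 and 2.78 in HESKOL Dex livers and -0.66, -0.63 and 0.16 in HESKOL untreated livers, against -0.34, -0.13 and 0.57 in WT Dex livers and -1.19, -0.43 and -0.58 in WT untreated livers. The HESKOL Dex livers alone were high. It rose 10.5-fold with dexamethasone in HESKOL liver (limma adjusted p = 0.001) and the wild-type change was 1.71-fold (limma adjusted p = 0.401), with a difference of 2.62 (SE 0.47, limma adjusted p = 0.182).

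Cdc42ep5, an effector of the small GTPase Cdc42, had levels of 0.48, 1.25 and 0.40 in HESKOL Dex livers and -2.46, -2.62 and -2.42 in HESKOL untreated livers, against -2.84, -3.59 and -2.47 in WT Dex livers and -3.24, -3.18 and -2.86 in WT untreated livers. Its difference of 3.08 (SE 0.44, limma adjusted p = 0.0937) was shared by 2 further probes, at 2.94 and 2.98. Ptgfr, the receptor for prostaglandin F2alpha, was well above background only in HESKOL Dex livers, at -4.82, -3.85 and -4.60, and entered the test through that group alone. With each HESKOL untreated level set no lower than the dimmest signal well above background on its array, dexamethasone raised it 6.59-fold in HESKOL liver. That dimmest signal is not the probe's own limit of detection, so the fold is no strict lower bound. The measured log2 change was 3.50 (limma adjusted p = 0.00204). Its measured means were -4.43 in HESKOL Dex and -7.93 in HESKOL untreated livers. The difference of responses was 3.64 as measured (SE 0.60, limma adjusted p = 0.134). It was 1.36 (SE 0.87) in a second probe, which was well above background on 1 array only.

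Fam53b rose 2.64-fold with dexamethasone in HESKOL liver (limma adjusted p = 0.0111), while its log2 change in wild-type liver was -1.04 (limma adjusted p = 0.152), giving a difference of 2.44 (SE 0.36, limma adjusted p = 0.0971). Myom1, which encodes a protein of the muscle M band, Shisa9 and Nle1 had differences of 1.96, 1.87 and 1.40. All 3 rose in HESKOL liver, by log2 changes of 2.38, 2.67 and 1.67, and their wild-type changes were 0.42, 0.79 and 0.26, none past the threshold.

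Cux2, a homeobox factor known for higher expression in female than in male mouse liver, had unlike levels in the 2 genotypes also without treatment. It was 0.40, -0.06 and 1.09 in HESKOL Dex livers and -3.39, -3.70 and -4.34 in HESKOL untreated livers, against -6.17, -8.61 and -7.14 in WT Dex livers and -7.72, -7.00 and -7.70 in WT untreated livers. The genotypes did not overlap within either treatment, but the untreated difference of 3.66 did not pass the threshold (limma adjusted p = 0.36), and only 1 WT array of each treatment was well above background. Its difference of responses was 4.12 (SE 0.76, limma adjusted p = 0.182), and 4.52 in a second probe, well above background on 6 arrays.

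Hacl1 and Rpl3l were the exceptions among positive genes, since here the wild-type change passed the threshold. Hacl1 encodes a peroxisomal lyase of fatty acid alpha-oxidation. Its levels were 0.53, 0.92 and 0.75 in HESKOL Dex livers and 0.12, 0.23 and 0.61 in HESKOL untreated livers, against -1.15, -2.65 and -2.17 in WT Dex livers and 0.01, 0.28 and 0.49 in WT untreated livers. Only WT Dex livers were low: the gene fell 4.76-fold in wild-type liver (limma adjusted p = 0.0276), and the log2 change in HESKOL liver was 0.41 (limma adjusted p = 0.498). The difference was 2.66 (SE 0.48, limma adjusted p = 0.182) and 3.08 without WT Dex replicate 1, where it passed (limma adjusted p = 0.0158). Rpl3l, a ribosomal protein paralogue, was not well above background on any WT Dex array, and entered the test through HESKOL Dex livers alone. With WT Dex levels set no lower than the dimmest clear signal, as for Ptgfr, it fell 1.18-fold in wild-type liver. The measured log2 change there was -1.99 (limma adjusted p = 0.0423), with measured means of -8.46 in WT Dex and -6.46 in WT untreated livers. It was dim in all groups, and its difference of 2.48 as measured turned to -0.54 after another background correction (normexp).

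Among negative genes, Bhlhe40, a repressor of the circadian system also known as Dec1, was 1.14, 0.63 and 1.36 in HESKOL Dex livers and 3.06, 3.06 and 3.03 in HESKOL untreated livers, against 4.78, 3.59 and 3.30 in WT Dex livers and 3.46, 3.29 and 2.86 in WT untreated livers, a difference of -2.70 (SE 0.50, limma adjusted p = 0.182). S1pr1, a sphingosine 1-phosphate receptor abundant on endothelial cells, was -0.26, -0.33 and -0.25 in HESKOL Dex livers and 1.46, 1.52 and 1.29 in HESKOL untreated livers, against 1.65, 2.06 and 1.23 in WT Dex livers and 1.42, 1.28 and 1.19 in WT untreated livers. Its difference was -2.05 (SE 0.31, limma adjusted p = 0.1), and the endothelial marker list as a whole had a median difference of -0.25, or -0.15 with the block. Slc22a30, Sel1l3, Abca2 and Tnfaip2 had differences of -2.15, -1.63, -1.32 and -2.76. All 4 fell with dexamethasone in HESKOL liver, by 4.32-fold, 3.65-fold, 2.80-fold and 7.43-fold, and none of their wild-type changes exceeded 0.24 log2 units in size. For Sel1l3, 2 dimmer probes gave 0.74 and 0.06, the first above background on no array and the second on 4.

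The largest negative differences in size came with the widest errors. Rnf186, an E3 ubiquitin ligase, fell 81.1-fold in HESKOL liver (limma adjusted p = 0.00204), with a difference of -5.53 (SE 1.09). Hao2, an oxidase of 2-hydroxy acids, was not well above background on any HESKOL Dex array, and entered the test through HESKOL untreated livers alone. With HESKOL Dex levels set no lower than the dimmest clear signal, as for Ptgfr, it fell 6.11-fold in HESKOL liver. The measured log2 change there was -4.50 (limma adjusted p = 0.00719), with measured means of -8.89 in HESKOL Dex and -4.39 in HESKOL untreated livers. In WT Dex livers it was well above background on 1 array, and in WT untreated livers on none, so its difference of -5.13 (SE 1.04) rests on dim signals. Gdf15, a stress cytokine, was the negative gene in which wild-type liver responded: 0.24, 2.09 and 1.11 in HESKOL Dex livers and 1.2, 1.63 and 0.24 in HESKOL untreated livers, against 6.53, 4.08 and 4.14 in WT Dex livers and 0.29, -0.83 and 0.44 in WT untreated livers. It rose 30.9-fold in wild-type liver (limma adjusted p = 0.0197) and 1.09-fold in HESKOL liver (limma adjusted p = 0.932), a difference of -4.82 (SE 0.98, limma adjusted p = 0.255).

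**Figure D3:**
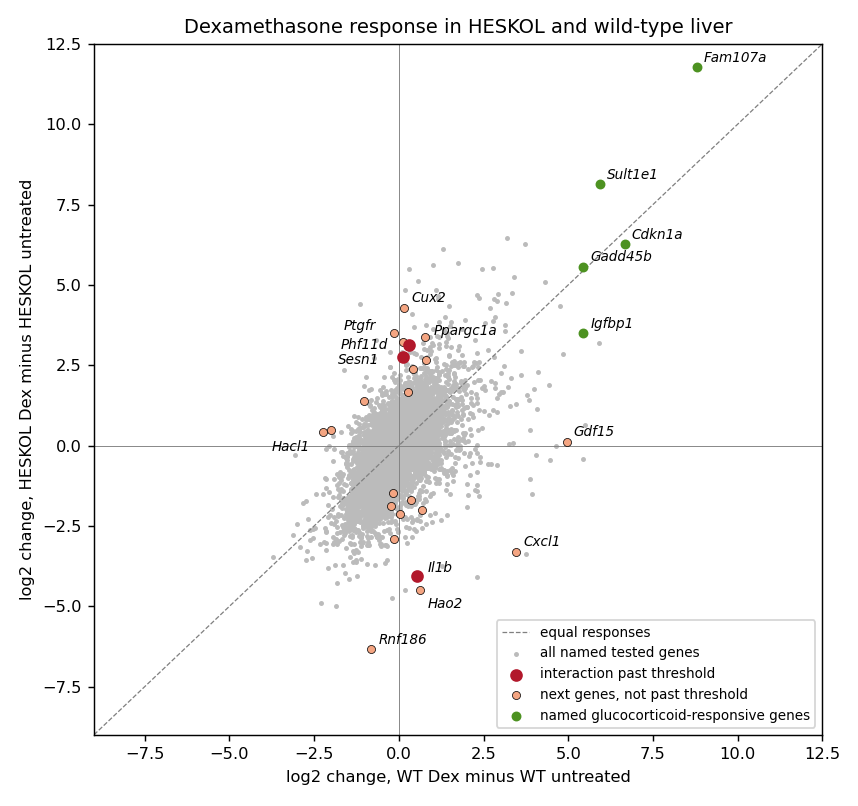
Dexamethasone response in HESKOL liver (vertical axis) against that in wild-type liver (horizontal axis), both as log2 changes, for the 15190 named genes tested; the dashed line marks equal responses. Phf11d, Sesn1 and Il1b (red) lie near 0 on the wild-type axis, Gdf15 and Hacl1 near 0 on the HESKOL axis, and Cdkn1a and Gadd45b close to the line.

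The responses of the 2 genotypes ran in the same direction for most genes called in HESKOL liver. Of the 673 genes that rose there, 607 (90.2%) had a positive log2 change in wild-type liver, with medians of 1.51 in HESKOL and 0.59 in wild-type liver; over all genes tested, 47.9% were positive in wild-type liver. Of the 787 that fell, 744 (94.5%) were negative in wild-type liver, with medians of -1.54 in HESKOL and -0.64 in wild-type liver. The genes were chosen on the HESKOL values, which by itself makes the HESKOL median the larger. The 30 genes that rose in wild-type liver, chosen on the wild-type values, were all positive in HESKOL liver, with medians of 2.13 in HESKOL and 2.93 in wild-type liver. Across all genes tested the 2 responses had a Pearson correlation of 0.59, or 0.68 without WT Dex replicate 1; genes are not independent replicates, and the 2 responses share slides but no arrays.

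Of 27 tested targets of the glucocorticoid receptor, 16 had a positive and 11 a negative difference, with a median of 0.54. None passed the threshold, and 3 in each direction reached an unadjusted p of 0.05. With dexamethasone 17 of the 27 rose in HESKOL liver, where 673 of the 18658 genes tested rose. In wild-type liver 7 of the 27 were called, counted in either direction, where 0.198% of all genes tested were. Cdkn1a, the cell cycle inhibitor p21, rose in both genotypes, by log2 changes of 6.26 in HESKOL and 6.66 in wild-type liver, and the interval of its difference, -2.07 to 1.27, includes 0. Gadd45b, a stress-induced signalling protein, rose by 5.57 in HESKOL and 5.45 in wild-type liver (interval of the difference -1.48 to 1.71). For Tat, tyrosine aminotransferase, the interval was -0.98 to 0.80, for Pck1, the cytosolic PEP carboxykinase, -0.85 to 1.13, and for Sgk1, a kinase of salt transport, -1.17 to 1.32. Igfbp1, an insulin-suppressed binding protein, rose by 3.49 in HESKOL and 5.45 in wild-type liver (interval -4.41 to 0.50).

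Errors were wider where WT Dex replicate 1 was unlike its group. Fkbp5, an immunophilin that feeds back on the receptor, was 3.93, 2.48 and 3.28 in HESKOL Dex livers and -0.10, -0.64 and -0.47 in HESKOL untreated livers, against -1.0, 3.45 and 3.98 in WT Dex livers and 0.33, 1.19 and -0.65 in WT untreated livers. WT Dex replicate 1 alone lacked the high level of treated livers, and the difference of 1.78 (SE 1.48) was 0.21 without it. Fam107a, a stress-induced actin-binding protein, was 2.87, 2.35 and 2.90 in HESKOL Dex livers, and not well above background in any HESKOL untreated liver, against -1.90, 3.06 and 3.14 in WT Dex livers and -8.01, -6.71 and -7.37 in WT untreated livers, where 1 array was well above background. With HESKOL untreated levels set no lower than the dimmest clear signal, as for Ptgfr, Fam107a rose 923-fold in HESKOL liver. Its measured means were 2.70 in HESKOL Dex and -9.07 in HESKOL untreated livers (limma adjusted p = 0.000765 for the measured change). Its difference, 2.99 as measured and 1.32 without WT Dex replicate 1, rests on these dim untreated signals. Tsc22d3, the anti-inflammatory GILZ, differed by 1.34 (SE 0.85), and by 0.50 without that array.

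Targets with a larger response in HESKOL liver, none past the threshold, were Lpin1 at 2.38, a phosphatidate phosphatase, Tdo2 at 1.32, tryptophan dioxygenase, and Per1 at 1.32, a clock gene. For Tdo2 the value was 0.57 with slide as a block and 0.86 without WT Dex replicate 1. Targets on the negative side were Bcl6 at -3.01, a repressor, Mt1 at -1.38, a metallothionein, and Dusp1 at -0.87, a MAP kinase phosphatase. The blocked values of Bcl6 and Dusp1 were smaller in size, -1.17 and -0.36. Mt1 rose 3.21-fold in HESKOL and 8.36-fold in wild-type liver, and Dusp1 rose 3.90-fold in HESKOL and 7.14-fold in wild-type liver. Bcl6 had levels of 0.91, 1.15 and 0.45 in HESKOL Dex livers and 1.5, 2.96 and 2.56 in HESKOL untreated livers, against 5.04, 5.53 and 3.77 in WT Dex livers and 2.79, 2.12 and 4.89 in WT untreated livers. For Bcl6 neither response passed the threshold alone, but the treated genotypes differed by -3.94 (limma adjusted p = 0.027).

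Lipogenic genes, which insulin and SREBP-1c drive, were negative in 11 of 15 tested, with a median of -1.37. At an unadjusted p of 0.05, 7 of the 15 were negative, against 3.41% of all genes tested, and none passed the threshold. With dexamethasone 6 of the 15 fell in HESKOL liver, where 787 of the 18658 genes tested fell. None of the 15 fell in wild-type liver, where 7 of the genes tested did, so that none is what the background share gives. Srebf1, which encodes SREBP-1, was 2.63, 2.59 and 2.22 in HESKOL Dex livers and 6.48, 6.27 and 6.86 in HESKOL untreated livers, against 6.99, 5.57 and 3.25 in WT Dex livers and 6.73, 6.17 and 6.61 in WT untreated livers. WT Dex replicate 3, on the slide of the HESKOL Dex livers, was the nearest to them, and the difference of -2.82 (SE 0.98) was -0.75 with slide as a block. Elovl6, a fatty acid elongase, differed by -1.92 (SE 0.45) and by -2.16 in the blocked fit, Mlxipl, the carbohydrate-response factor ChREBP, by -1.41 and -1.22, and Acaca, acetyl-CoA carboxylase, by -1.44 and -1.36. The other 3 Acaca probes gave smaller differences, -1.10, -0.96 and -0.56. The list's median was -0.78 with the block and -1.08 without WT Dex replicate 1. Without that array 4 members were negative and 2 positive at an unadjusted p of 0.05 (limma). Genes of cholesterol synthesis were negative in 20 of 21, with a median of -1.42 and 5 at an unadjusted p of 0.05, Mvd lowest in p at -2.66 (-1.77 with the block), a decarboxylase of the mevalonate pathway. This list depended on the arrays: its median was -0.33 with the block and -0.62 without WT Dex replicate 1.

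Lipid droplet genes went the other way in part, with 13 of 18 positive and a median of 0.45. At an unadjusted p of 0.05, 6 were positive and 1 negative (Lpl, lipoprotein lipase, named after its value was seen). Over all genes tested these shares were 3.22% and 3.41%. No member of the list passed the threshold. Cidec, a droplet fusion protein, was 2.99, 5.44 and 4.5 in HESKOL Dex livers and -0.86, -2.12 and -1.13 in HESKOL untreated livers, against 1.54, -0.18 and 1.26 in WT Dex livers and -1.68, -0.81 and -0.12 in WT untreated livers. All HESKOL Dex arrays were above every other array. It rose 51.3-fold in HESKOL liver (limma adjusted p = 0.00185), the wild-type change was 3.35-fold (limma adjusted p = 0.34), and the difference was 3.94 (SE 0.93, limma adjusted p = 0.35). Its relative Cidea differed by 1.79, the triglyceride lipase Pnpla2 by 1.49, its regulator Plin5 by 2.01 and Lpin2, a phosphatidate phosphatase, by 1.44. Pnpla2 was at 0.83 with slide as a block, and Plin5 at 1.21 without WT Dex replicate 1. All 4 rose with dexamethasone in HESKOL liver, and in all 4 the HESKOL Dex arrays were above the other 9. Of the 5 adipocyte markers tested, which include Cidec, the median difference was -0.07, or 0.07 without WT Dex replicate 1.

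Genes of fatty acid oxidation were positive in 17 of 20, with a median of 0.70, 4 at an unadjusted p of 0.05 and none past the threshold. Over all genes tested, 3.22% were positive at that p. With slide as a block the median was 0.43 and 0 members reached that p (limma). Cpt1a, which admits fatty acids to mitochondria, was 5.97, 6.09 and 6.00 in HESKOL Dex livers and 5.25, 4.94 and 5.08 in HESKOL untreated livers, against 4.82, 4.31 and 4.99 in WT Dex livers and 4.78, 5.28 and 5.15 in WT untreated livers. It rose 1.90-fold in HESKOL liver (limma adjusted p = 0.0321), and differed by 1.29 (SE 0.32) or, with the block, 0.85. Cyp4a10, a PPARalpha target, differed by 1.88 but by 0.34 with the block. Amino acid catabolism and the urea cycle had the most positive median of any list, 0.95, with 21 of 23 positive and 6 at an unadjusted p of 0.05, none past the threshold. With dexamethasone 11 of the 23 amino acid and urea cycle genes rose in HESKOL liver and none in wild-type liver. Of the 18658 genes tested, 673 rose in HESKOL and 30 in wild-type liver. Asl, argininosuccinate lyase, differed by 1.53 (SE 0.48), Arg1, arginase, by 1.47 (SE 0.56), and Got1, aspartate aminotransferase, by 1.61 (SE 0.64).

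Gluconeogenesis genes had a median of 0.26, or 0.52 with slide as a block, with 11 of 15 positive and 3 at an unadjusted p of 0.05, Ppargc1a, Got1 and the alanine aminotransferase Gpt. G6pc, glucose-6-phosphatase, was 6.29, 6.48 and 6.30 in HESKOL Dex livers and 4.96, 4.18 and 6.00 in HESKOL untreated livers, against 4.97, 5.08 and 3.81 in WT Dex livers and 4.15, 4.66 and 5.26 in WT untreated livers. The HESKOL Dex arrays were above the rest, and the difference was 1.38 (SE 0.67, limma adjusted p = 0.766), or 2.27 with the block. The 14 tested genes of glycolysis and glycogen had a median of -0.20, or -0.03 with the block. The hepatocyte markers, 11 tested, had a median of -0.17, or 0.05 with the block, and their summed signal relative to the 75th percentile ran from 2306 to 3158 in HESKOL Dex livers and 1861 to 3128 in HESKOL untreated livers, against 2386 to 3033 in WT Dex livers and 1954 to 2687 in WT untreated livers. Of them Ttr, transthyretin, differed by -1.58 (limma unadjusted p = 0.0032), or -1.05 with the block, and fell 2.92-fold in HESKOL liver (limma adjusted p = 0.0139).

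Inflammatory genes had the most negative median of the pathway lists. Of 21 tested NF-kB targets and cytokines 20 were negative, with a median of -2.22. Il1b alone passed the threshold. At an unadjusted p of 0.05, 13 were negative and 1 positive (Vcam1, an adhesion molecule named after its value was seen). Over all genes tested these shares were 3.41% and 3.22%. Cxcl1, a neutrophil attractant, was -2.0, -1.43 and -3.14 in HESKOL Dex livers and 1.09, 0.99 and 1.25 in HESKOL untreated livers, against 6.34, 2.83 and 5.43 in WT Dex livers and 0.47, 0.52 and 3.20 in WT untreated livers. It was lowest in HESKOL Dex livers and ranged widely in wild-type livers. Its fall in HESKOL liver passed (9.84-fold, limma adjusted p = 0.0478), its log2 change of 3.47 in wild-type liver did not (limma adjusted p = 0.17), and the difference was -6.76 (SE 1.27, limma adjusted p = 0.182). Icam1, an adhesion molecule, differed by -2.52 (SE 0.76), Tnfaip3, a brake on NF-kB, by -3.29 (SE 0.96), and Ccl3, a macrophage chemokine, by -3.03 (SE 0.92).

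This group moved with WT Dex replicate 1: the median shift of the list from the WT untreated mean was -0.60, -1.03 and -0.82 in HESKOL Dex livers and 0.39, 0.56 and -0.15 in HESKOL untreated livers, against 1.47, -0.15 and 0.80 in WT Dex livers and 0.25, -0.28 and -0.12 in WT untreated livers. Every HESKOL Dex array was lower than the rest. The list's median difference was -1.52 without WT Dex replicate 1, with 10 negative at an unadjusted p of 0.05, and -2.78 with slide as a block, with 8. Immediate early genes followed the same array more closely, with median shifts of 0.66, 0.98 and 0.47 in HESKOL Dex livers and 0.38, 0.64 and 0.20 in HESKOL untreated livers, against 3.61, 0.53 and 1.27 in WT Dex livers and 0.21, -0.06 and -0.15 in WT untreated livers. Their median difference of -1.47, with 20 of 21 negative and 7 at an unadjusted p of 0.05, was -0.72 without WT Dex replicate 1. Egr1 and Fos, transcription factors of that class, differed by -4.83 and -4.67, and by -3.41 and -3.21 without it.

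Immune cell markers were also on the negative side, without any at an unadjusted p of 0.05: all 13 Kupffer cell and macrophage markers (median -0.57), all 13 lymphocyte markers (median -0.47) and all 10 neutrophil markers (median -2.44). Summed macrophage marker signal ran from 110 to 254 in HESKOL Dex livers and 279 to 430 in HESKOL untreated livers, against 145 to 326 in WT Dex livers and 192 to 380 in WT untreated livers. Without WT Dex replicate 1 the macrophage median was -0.16. The lymphocyte median was -0.06 without that array and 0.05 with slide as a block. The Kupffer cell marker Clec4f was 4.46, 4.43 and 3.99 in HESKOL Dex livers and 4.88, 5.04 and 4.59 in HESKOL untreated livers, against 5.15, 4.28 and 4.49 in WT Dex livers and 4.48, 4.63 and 4.64 in WT untreated livers, a difference of -0.60 (SE 0.36), or -0.35 without WT Dex replicate 1. Neutrophil markers spread widely inside groups, with sums of 3.19 to 38.8 in HESKOL Dex livers and 10.2 to 264 in HESKOL untreated livers, against 20.4 to 169 in WT Dex livers and 16.0 to 345 in WT untreated livers, and their median turned to 1.48 with slide as a block. The part of these cells in the inflammatory differences was not tested.

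**Figure D4:**
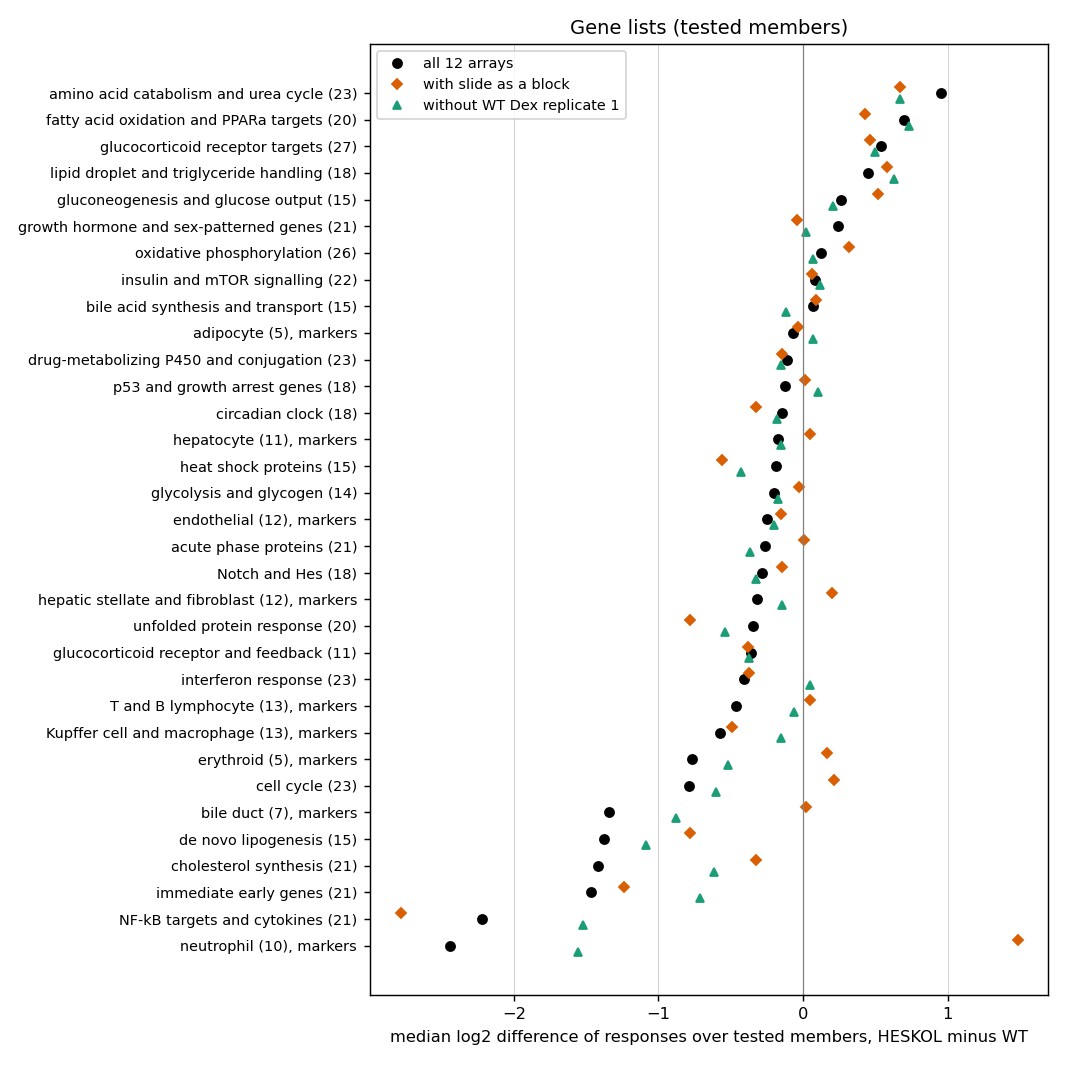
Median difference of dexamethasone responses (HESKOL minus wild type, log2) over the tested members of each of the 33 gene lists with at least 5 of them, from all 12 arrays, with slide as a block and without WT Dex replicate 1. NF-kB targets lie at -2.22, -2.78 and -1.52, and amino acid catabolism at 0.95, 0.67 and 0.67, while the neutrophil and bile duct lists move most between settings.

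Stress and growth arrest genes were split. Of 18 tested p53 and growth arrest genes, 9 were positive and 9 negative, with a median of -0.12 that was 0.01 with slide as a block and 0.10 without WT Dex replicate 1. Sesn1 passed the threshold, and Sesn1, Sesn2 and Gadd45a, with Gdf15 and Plk2, had the smallest p in the list. Gadd45a, a DNA damage response protein, was -2.41, -2.14 and -2.91 in HESKOL Dex livers and 2.35, 1.89 and 0.56 in HESKOL untreated livers, against 6.12, 1.74 and 1.27 in WT Dex livers and 0.39, 0.75 and 1.10 in WT untreated livers. It fell 17.0-fold in HESKOL liver (limma adjusted p = 0.0346). The difference was -6.38 (SE 1.43, limma adjusted p = 0.321), and -4.84 without WT Dex replicate 1, where it passed (limma adjusted p = 0.0444). Plk2, a polo-like kinase, differed by -1.71 (SE 0.39). Of 20 tested genes of the unfolded protein response 15 were negative, with a median of -0.35, or -0.78 with the block and -0.54 without WT Dex replicate 1. At an unadjusted p of 0.05, 1 was positive and 2 were negative (limma). In that list Asns, asparagine synthetase, differed by 2.71 (4.58 with the block) and the stress factor Atf3 by -4.93, which was -2.88 with the block and -3.08 without WT Dex replicate 1.

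Among growth hormone and sex-patterned genes, 21 tested, the median of 0.24 turned to -0.05 with slide as a block and was 0.02 without WT Dex replicate 1. Lepr, the leptin receptor, was 2.55, 2.68 and 1.26 in HESKOL Dex livers and -2.23, -0.73 and -0.78 in HESKOL untreated livers, against -2.84, -1.99 and -1.17 in WT Dex livers and -2.98, -3.74 and -3.56 in WT untreated livers. It rose 10.6-fold in HESKOL liver (limma adjusted p = 0.00616), with a difference of 1.98 (SE 0.76, limma adjusted p = 0.657). Cyp8b1, the sterol 12-alpha-hydroxylase of bile acid synthesis, differed by 2.57 (SE 0.82) and Abcb11, the bile salt export pump, by -1.12 (SE 0.34). Interferon response genes were negative in 18 of 23, but their median of -0.41 was 0.05 without WT Dex replicate 1. Oxidative phosphorylation genes, 26 tested, had a median of 0.12 (0.32 with the block), and none reached an unadjusted p of 0.05.

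**Figure D5:**
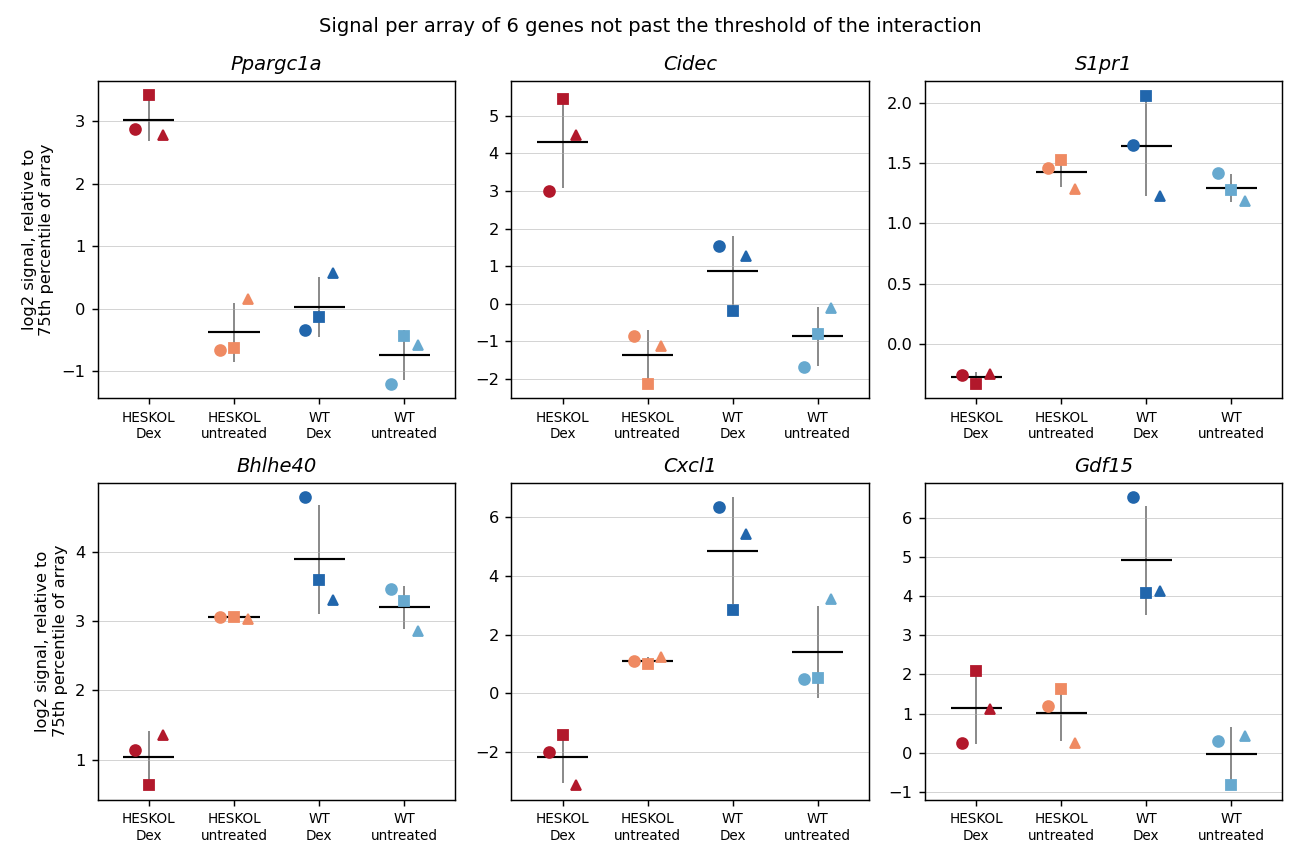
Level per array (log2 signal relative to the 75th percentile of the array) of Ppargc1a, Cidec, S1pr1, Bhlhe40, Cxcl1 and Gdf15 in HESKOL Dex, HESKOL untreated, WT Dex and WT untreated livers; points are arrays (circle, square and triangle for replicates 1, 2 and 3), horizontal lines group means and vertical lines 1 SD. In the first 5 genes the HESKOL Dex arrays are apart from the rest, and in Gdf15 the WT Dex arrays are.

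Hes1 itself, the gene in the study's title, was -3.08, -3.02 and -3.85 in HESKOL Dex livers and -2.46, -2.40 and -3.09 in HESKOL untreated livers, against -1.16, -2.57 and -2.92 in WT Dex livers and -1.49, -1.22 and -1.90 in WT untreated livers. HESKOL arrays were below wild-type arrays within either treatment. Its log2 change with dexamethasone was -0.67 in HESKOL and -0.69 in wild-type liver, a difference of 0.02 (SE 0.61, 95% interval -1.32 to 1.36, limma adjusted p = 0.997). The probe may lie outside the altered part of the gene, so this is a limited check of the labels. Of 18 tested Notch and Hes genes, 12 were negative, with a median of -0.28, or -0.14 with the block. Heyl, a related Notch target, differed by -1.54 (SE 0.62), and by -0.18 with slide as a block. Nr3c1, the glucocorticoid receptor, differed by -0.36 (SE 0.26), with levels of 2.14, 2.01 and 2.05 in HESKOL Dex livers and 2.52, 2.40 and 2.78 in HESKOL untreated livers, against 2.33, 2.37 and 2.37 in WT Dex livers and 2.35, 2.47 and 2.69 in WT untreated livers.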

How the data were processed

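Total RNA of 12 livers was measured on one-colour arrays. Per the file headers, the authors' intensity values came from Agilent Feature Extraction, version 9.5.3.1, for a design on mm7; the submitters' processing notes give 9.5. The deposited processed signal is a background-subtracted linear intensity, and the deposited series table equals it, with column medians of 53.7 to 112. Here the log2 signal of non-control spots was centred on each array's 75th percentile (897 to 1614 units). Outlier spots were dropped, saturated spots kept. Of 41174 probes, 22951 were named by accession and 9768 by symbol or synonym through RefSeq, 156 kept the file's name and 8299 had none. The probe with the highest mean stood for its gene.

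Group means were fitted with limma 3.58.1 (lmFit, eBayes) in R 4.3.3, with 8 residual degrees of freedom, and p-values adjusted by Benjamini-Hochberg over 18658 genes. In 17 genes the fit dropped an array with no value. The fit was tested on simulated data. The text names the 12 genes per direction that passed or had the smallest p and kept their sign with each array left out, Hes1, 15 genes known from glucocorticoid action or liver, and at most 5 per list from 35 lists. Members and lists were chosen with earlier results of these data known. Alternatives covered scaling, background, filter, probe choice, slide and replicate blocks, array weights, thresholds and each array left out. Not every gene the rule named is described, and 1 is not reported here.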

Additional observations from a re-analysis of the deposited data

Results flagged for a closer look

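Phf11d, Sesn1 and Il1b were set aside for a closer look because their dexamethasone response differed between HESKOL and wild-type liver by a test of the difference itself (limma, adjusted p of 0.0191, 0.0241 and 0.0341). The differences were 2.83 for Phf11d, 2.63 for Sesn1 and -4.57 for Il1b on the log2 scale. In each gene the 3 HESKOL Dex arrays lay apart from the other 9 arrays. The 3 HESKOL Dex arrays share slide 3 with WT Dex replicate 3, whose levels were 0.45 for Phf11d, 2.18 for Sesn1 and -0.41 for Il1b. Single genes were not searched for outlying arrays, since each group held 3.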

How the results depend on the processing

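The count of 3 genes stayed at 3 with quantile normalization, median scaling, no filter, a stricter filter and an intensity trend with robust estimation. The count also stayed at 3 with a minimum log2 change of 1, which could not alter it, since all 3 differences were larger in size. It was 2 with normexp or the mean of a gene's probes, and 2 with the replicate number as a block (1 of them shared with the 3). Same-numbered arrays deviated from their group means with correlations between -0.40 and 0.62. The median was -0.01, against -0.06 for arrays with different numbers, and these correlations cannot decide whether the numbers pair the mice. The count was 7 with slide as a random block (intra-slide correlation -0.06) and 198 with array weights (109 positive and 89 negative, the 3 among them). It was 0 with slide as a fixed block (808 at an unadjusted p of 0.05, limma), with the unscaled deposited table (1673 at an unadjusted p of 0.05), or at an adjusted p of 0.01. Leaving out 1 array gave 0 to 13 genes (881 to 2032 at an unadjusted p of 0.05): 9, 13 and 6 without WT Dex replicates 1, 2 and 3, 0 without WT untreated replicate 2, HESKOL Dex replicate 2 or 3, or any HESKOL untreated replicate, 4 without WT untreated replicate 1, and 2 without WT untreated replicate 3 or HESKOL Dex replicate 1. The cause was not tested. Over 103 genes and 24 alternatives, 2352 of 2464 values kept direction and side of the threshold, 33 fell below it, 45 rose past it and 34 turned sign, in Rpl3l, Fkbp5, Pygl, Hes1, Sgk1, Tat, Pck1, Cdkn1a and Gadd45b. Only 3 of the 103 genes passed in the main setting, and all 33 falls were of these 3. The other genes counted as kept by staying below the threshold, so the pooled figure does not measure how stable the 3 calls are. The median of all genes moved to -0.22 with normexp, 0.25 with the deposited table and 0.11 with the slide block, and the values given for these settings are not corrected for that. Turned values were -0.540 (Rpl3l) with normexp; -0.359 (Fkbp5) with the slide block; 0.157 (Pygl) with the mean of probes; -0.0405 and -0.0496 (Hes1) with normexp and the random slide block; -0.0438 and -0.402 (Sgk1) with quantile normalization and the slide block; 0.133, 0.156, 0.235 and 0.0238 (Tat) with normexp, the deposited table, the slide block and array weights; and 0.0821 (Cdkn1a) with normexp. With 1 array left out at a time, values ran from -0.335 to 0.545 for Hes1, -0.205 to 0.582 for Sgk1, -0.306 to 0.188 for Tat, -0.108 to 0.459 for Pck1, -0.972 to 0.00196 for Cdkn1a and -0.211 to 0.724 for Gadd45b.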
